A study of Mus musculus with 6 samples.

Results

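Csf1 and 8 other genes for secreted cytokines were followed in MLE12 cells, a line of mouse alveolar epithelial cells, in which 2 genes of the mitochondrial citrate pathway were knocked down. The genes were Csf1, Csf2, Csf3, Il6, Il11, Lif, Il33, Il18 and Il1a, 9 of the 54532 genes in the table of raw counts, and they were found there by gene name. They were chosen by their place in cytokine signaling with the knockdown contrast of these same samples already known, Csf1 having passed the test in it. The values of the 9 genes in that contrast are therefore given as a description and not as a test.

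RNA-seq had been done on 3 samples with Ctrl shRNA and 3 samples with Idh3a shRNA + Slc25a1 shRNA, called the knockdown group here. Idh3a is a subunit of the isocitrate dehydrogenase that consumes citrate-derived isocitrate inside mitochondria, and Slc25a1 carries citrate out of them, and the comparison asked what changed when both were reduced. All cells are labelled as of C57BL/6J strain, grew in HITES medium, and received shRNA by lentivirus. Control cells received an empty control lentivirus at a multiplicity of infection (MOI) of 50, and knockdown cells received 2 lentiviruses at an MOI of 50 each. Both groups were washed after 16 h and grown for another 80 h. The labels do not say whether the control dose was raised to match the sum, and as they give it the amount of lentivirus differed together with the knockdown, so their effects cannot be told apart here. Nothing in the labels says whether replicates were separate cultures, so errors and p-values measure the spread between these samples, which may be technical.

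Cytokines of this group act on neighboring cells through receptors at the surface. Csf1, Csf2 and Csf3 are the colony-stimulating factors of macrophages, of granulocytes and macrophages, and of granulocytes. In the lung, alveolar epithelium is known as a source of Csf1 and Csf2 for alveolar macrophages. Il6, Il11 and Lif belong to the IL-6 family, whose receptors share the transducer gp130, encoded by Il6st, and signal through Jak1 and Stat3. Il1a, Il18 and Il33 belong to the IL-1 family and lack a classical signal peptide. Il1a and Il33 act as alarm signals released by damaged cells, and Il18 is cut to its active form by caspase-1. Many cytokine mRNAs are short-lived because their 3′ untranslated region (3′UTR) carries AU-rich elements, built on the pentamer ATTTA.

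The total count was 27273502 to 28535653 in the Ctrl shRNA samples and 27715153 to 28112519 in the knockdown samples. Ctrl shRNA replicate 2 stood apart from the other 5 samples. Its 100 most counted genes held 27.2% of all counts, against 12.5% to 12.9% elsewhere, and mitochondrial genes held 6.49% against 1.57% to 1.80%. In that library 16681 genes had a count, against 19902 to 23147 in the others, and values are therefore also given without it. The targeted genes were lower in every knockdown sample. Idh3a was at 79.8, 137 and 93.0 CPM (counts relative to the library size, scaled by TMM factors) in the Ctrl shRNA samples and at 58.5, 57.9 and 55.5 CPM in the knockdown samples. Slc25a1 was at 103, 98.7 and 108 CPM and at 68.9, 69.6 and 63.0 CPM. Of the 12 epithelial markers, 8 had enough counts for the fit, among them Krt19, Krt8, Nkx2-1 and Sftpc. Of the others, Krt18 had 0 to 16 counts per sample, Lamp3 3 to 11 and Sftpa1 0 to 2, and Sftpd was at 0 in all samples. The leukocyte markers Ptprc, Adgre1, Itgam, Itgax, Marco and S100a8 were at 0 in all samples. Of the other leukocyte markers, Cd14 had 113 to 161 counts per sample, Cd68 38 to 81, Cd3e 0 to 18, Lyz2 0 to 6 and Csf1r 0 to 3.

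The 9 genes covered a wide range of levels. Raw counts per sample ran from 2648 to 9790 for Csf1, from 381 to 1242 for Lif and from 43 to 137 for Il18. Il11 and Il6 had at most 38 counts in a sample, and Il1a, Il33, Csf3 and Csf2 at most 21. Per length of gene, Csf1 was the most abundant, with a mean FPKM (counts relative to the length of the gene and the library size) of 44.4 over the 6 samples, above 91.4% of the 15307 genes that entered the test. Lif followed at 7.57 FPKM, above 57.6% of them, and Il18 at 3.07 FPKM, above 38.7%. The other means were 0.418 FPKM for Il11, 0.275 for Il6, 0.241 for Csf2, 0.139 for Il1a, 0.115 for Csf3 and 0.0934 for Il33. Csf1 was above Lif in all samples, and Lif was above Il18 in all samples but Ctrl shRNA replicate 2. Il18 was above Il11 in all samples. From Il11 down, the ranges of each gene and the next over the 6 samples overlapped. Csf1 made up 76.8%, 64.4% and 71.0% of the summed FPKM of the 9 genes in the Ctrl shRNA samples and 83.1%, 83.1% and 83.0% in the knockdown samples, so Csf1 was the larger part of the sum in each sample.

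**Figure D1:**
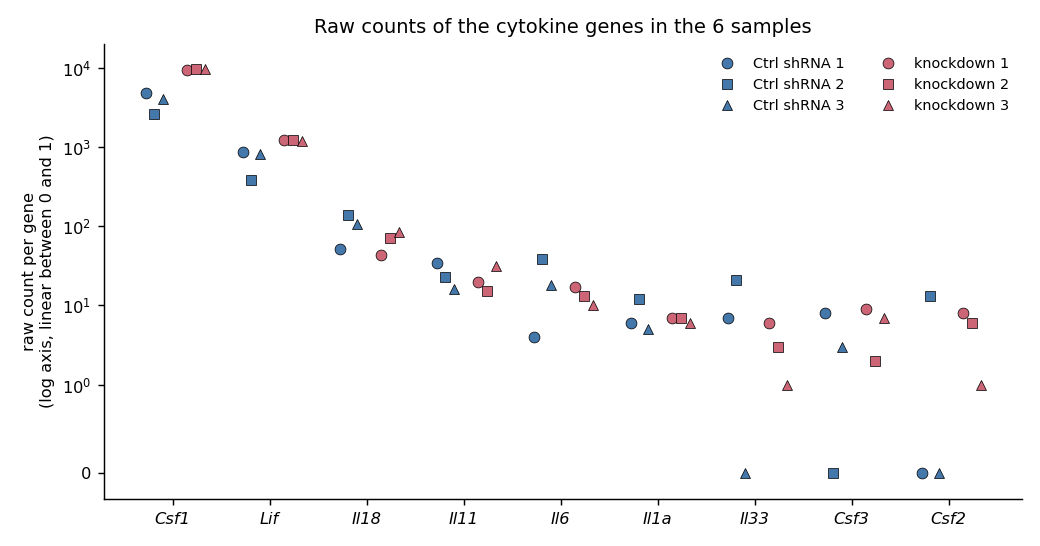
Raw count of each of the 9 cytokine genes (y axis, logarithmic above 1 and linear from 0 to 1) in the 3 Ctrl shRNA samples (blue) and the 3 knockdown samples (red), with the marker shape giving the replicate number. The groups are separate for Csf1 and Lif and overlap for the other 7 genes, and the blue squares of Ctrl shRNA replicate 2 are the highest points of Il18, Il6, Il1a, Il33 and Csf2. An exact permutation test of 3 against 3 cannot go below p = 0.1, and the share of all genes with separate groups was not counted.

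Csf1 encodes macrophage colony-stimulating factor, the ligand of the receptor Csf1r that macrophages need to survive and divide. The gene (ENSMUSG00000014599) lies on the minus strand at chr3:107741048-107760469 of GRCm38. It had 4875, 2648 and 4043 raw counts in Ctrl shRNA replicates 1 to 3 and 9495, 9740 and 9790 in knockdown replicates 1 to 3. Scaled, these were 157, 134 and 141 CPM and 319, 321 and 330 CPM. The lowest knockdown sample was above the highest Ctrl shRNA sample on both scales, and the low raw count of Ctrl shRNA replicate 2 became a level close to those of the other 2 control samples after scaling. The mean was 144 ± 12.04 CPM (SD, n = 3) in the Ctrl shRNA group and 323 ± 5.88 CPM (SD, n = 3) in the knockdown group. On the authors' FPKM scale the means were 27.4 ± 2.44 and 61.4 ± 1.16 (SD, n = 3). The log2 fold change of the fit across all genes was 1.17 (SE 0.09, 95% interval 0.95 to 1.38), and without Ctrl shRNA replicate 2 it was 1.11 (SE 0.08, 95% interval 0.93 to 1.28). In bulk RNA, more cells that express the gene and more mRNA per cell cannot be told apart.

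Among all 15307 genes, 0.0653% passed the threshold of an adjusted p under 0.05 (edgeR quasi-likelihood test, Benjamini-Hochberg), 0.0588% higher and 0.00653% lower in the knockdown group. Csf1 was 1 of the 9 genes that passed as higher, and since that result chose it, nothing is read from the count. Without Ctrl shRNA replicate 2, 1.79% of 15709 genes passed, 1.11% higher and 0.675% lower. Csf1 and Lif were then among the higher genes, and the other 3 cytokine genes that entered the fit were not called in either direction. The call of Csf1 was lost when any single sample other than Ctrl shRNA replicate 2 was left out, with log2 fold changes that stayed between 1.11 and 1.24 over all 6 fits of this kind. The call was also lost when libraries were scaled by total count alone, at a log2 fold change of 1.33. It held with DESeq2, with another scaling (RLE) and with limma on both FPKM scales. It also held with no count filter and with at least 10 counts required in every sample.

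Lif, leukemia inhibitory factor, is a ligand of the receptor pair Lifr and gp130. The gene (ENSMUSG00000034394) lies on the plus strand at chr11:4257557-4272514 of GRCm38. Raw counts were 866, 381 and 815 in the Ctrl shRNA samples and 1242, 1216 and 1174 in the knockdown samples. The levels were 28.0, 19.3 and 28.4 CPM and 41.7, 40.1 and 39.6 CPM. The groups did not overlap, and Ctrl shRNA replicate 2 was the lowest sample on both scales. The mean was 25.2 ± 5.15 CPM (SD, n = 3) in the Ctrl shRNA group and 40.5 ± 1.13 CPM (SD, n = 3) in the knockdown group. The log2 fold change was 0.68 (SE 0.16, 95% interval 0.30 to 1.06) with all samples, which did not pass the threshold in edgeR and did in DESeq2. It was 0.51 (SE 0.08, 95% interval 0.34 to 0.68) without Ctrl shRNA replicate 2, which passed it in edgeR.

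Csf1 and Lif were also set against each other within each library, which no scaling of the libraries affects. The ratio of Csf1 to Lif raw counts was 5.63, 6.95 and 4.96 in the Ctrl shRNA samples and 7.64, 8.01 and 8.34 in the knockdown samples. All 3 knockdown ratios were above all 3 control ratios. Csf1 and Lif together held 93.3%, 75.7% and 88.4% of the summed FPKM of the 9 genes in the Ctrl shRNA samples and 96.3%, 95.7% and 95.1% in the knockdown samples. The low share in Ctrl shRNA replicate 2 went with its high Il18, at 6.67 FPKM against 1.41 to 3.68 FPKM in the other 5 samples.

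**Figure D2:**
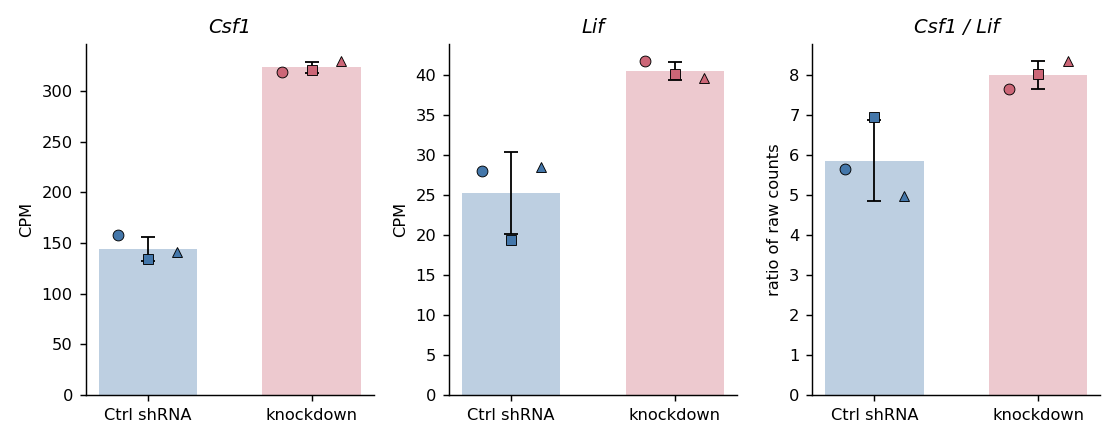
Levels of Csf1 and Lif in CPM and the ratio of their raw counts (y axes, from 0), with points for single samples, marker shape for the replicate number, bars for the group mean and whiskers for 1 SD (n = 3). Csf1 lies at 134 to 157 CPM in the Ctrl shRNA samples and at 319 to 330 CPM in the knockdown samples, and in all 3 panels the groups do not overlap.

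The sequences just upstream of Csf1 and Lif are shown because these were the abundant cytokine genes and those whose groups did not overlap, and that of Il6 as a low gene of the same signaling family. Each is the RefSeq window of 300 bases on GRCm38.p6, from 250 bases before to 50 bases after the annotated start site, written 5′ to 3′ on the strand of the gene. Capitals mark matches, on either strand, to the NF-κB consensus, to TGANTCA (AP-1) or to TTGNGCAA (C/EBP). The Csf1 window is chr3:107760420-107760719, minus strand, the Lif window chr11:4257318-4257617, plus strand, and the Il6 window chr5:30012864-30013163, plus strand.
Csf1: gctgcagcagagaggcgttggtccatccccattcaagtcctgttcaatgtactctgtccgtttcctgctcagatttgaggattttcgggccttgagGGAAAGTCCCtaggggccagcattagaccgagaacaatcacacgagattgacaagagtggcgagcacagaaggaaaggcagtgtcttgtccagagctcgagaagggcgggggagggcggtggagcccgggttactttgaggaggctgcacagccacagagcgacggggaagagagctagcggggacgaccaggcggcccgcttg
Lif: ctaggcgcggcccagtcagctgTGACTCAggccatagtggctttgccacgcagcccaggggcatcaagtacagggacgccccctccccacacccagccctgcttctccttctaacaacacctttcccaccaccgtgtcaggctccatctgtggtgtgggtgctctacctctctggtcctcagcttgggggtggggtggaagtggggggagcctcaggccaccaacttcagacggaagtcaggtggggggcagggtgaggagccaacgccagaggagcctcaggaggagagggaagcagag
Il6: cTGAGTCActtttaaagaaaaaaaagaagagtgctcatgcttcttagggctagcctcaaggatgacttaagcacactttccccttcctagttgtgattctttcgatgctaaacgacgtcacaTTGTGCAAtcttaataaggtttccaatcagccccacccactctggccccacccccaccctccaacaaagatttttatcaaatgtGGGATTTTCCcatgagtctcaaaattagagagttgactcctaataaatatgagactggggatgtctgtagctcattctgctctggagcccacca

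Csf1 held 1 match, to the NF-κB consensus, at positions -154 to -145 from the start site on the opposite strand. Il6 held an NF-κB match at -44 to -35, a C/EBP match at -128 to -121 and an AP-1 match at -249 to -243. Lif held 1 AP-1 match, at -228 to -222. RefSeq windows were matched for 8 of the 9 genes, 10 windows in all, since Il11 and Il33 had 2 each. The NF-κB consensus was in 4.505% of all 32851 windows of this length and in those of 2 of the 8 genes, Csf1 and Il6. AP-1 was in 7.808% of all windows and in those of 4 genes, Il1a, Il6, Il11 and Lif. C/EBP was in 2.941% of all windows and in those of Il6 and Csf2. TTCNNNGAA, the STAT motif, was in 8.298% of all windows and in none of these 10, and TATAAA was in 13.62% of all windows and in those of Il1a, Il18 and Il33. A match is a description of letters and not of binding, and the higher Csf1 and the low Il6 both held an NF-κB match.

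Il18 encodes a cytokine that induces interferon gamma in lymphocytes and is held as an inactive precursor in epithelium. It had 52, 137 and 108 raw counts in the Ctrl shRNA samples and 43, 71 and 84 in the knockdown samples. These were 1.68, 6.93 and 3.77 CPM and 1.44, 2.34 and 2.83 CPM. The groups overlapped with and without Ctrl shRNA replicate 2, which was the highest sample. The log2 fold change was -0.89 (SE 0.54, 95% interval -2.19 to 0.41) with all samples and -0.30 (95% interval -1.17 to 0.56) without that replicate. The intervals allow a fall as well as a small rise. Il18 overlaps the genes Tex12 and Bco2 on the opposite strand, and the use of strand in counting is not given in the sources used here. Tex12 had 0 to 5 counts and Bco2 3 to 16 counts per sample, fewer than Il18 in each.

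Il11 and Il6, the IL-6 family members at low level, had few counts and wide intervals. Il11, known for its part in bone marrow and fibroblast responses, had 34, 23 and 16 counts in the Ctrl shRNA samples and 20, 15 and 31 in the knockdown samples. Its groups overlapped, and the log2 fold change was -0.34 (SE 0.46, 95% interval -1.45 to 0.76), and -0.18 without Ctrl shRNA replicate 2. It was -0.12 without knockdown replicate 2, -0.68 without knockdown replicate 3, -0.20 without Ctrl shRNA replicate 1 and -0.63 without Ctrl shRNA replicate 3. Il6, the central inducer of the acute phase response, had 4, 38 and 18 counts in the Ctrl shRNA samples and 17, 13 and 10 in the knockdown samples. The control samples of Il6 enclosed all of the knockdown samples. Its log2 fold change was -0.95 (SE 0.88, 95% interval -3.09 to 1.19) with all samples and turned to 0.24 (95% interval -1.22 to 1.71) without Ctrl shRNA replicate 2. No direction can be given for Il6 here.

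**Figure D3:**
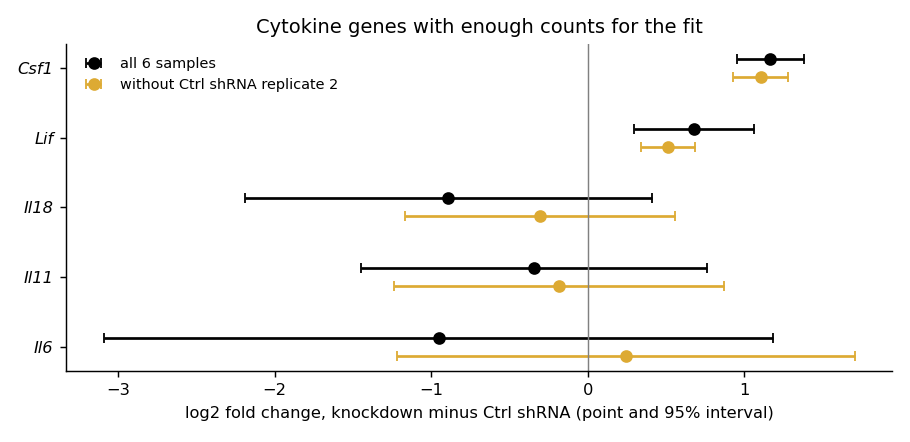
Log2 fold change, knockdown minus Ctrl shRNA (x axis), of the 5 cytokine genes that entered the fit, with its 95% interval, for all 6 samples (black) and without Ctrl shRNA replicate 2 (yellow). The intervals of Csf1 and Lif lie above 0 in both fits, those of Il18, Il11 and Il6 span 0, and the estimate of Il6 changes sign.

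The remaining 4 genes did not pass the count filter of the fit, with all samples or without Ctrl shRNA replicate 2, and no fold change is given for them. A count of 3, taken as the limit of detection, corresponded to 0.0969 to 0.152 CPM. Il1a, an alarm signal of the IL-1 family, had 6, 12 and 5 counts in the Ctrl shRNA samples and 7, 7 and 6 in the knockdown samples. Il33, another nuclear alarm signal and the ligand of Il1rl1, had 7, 21 and 0 counts and 6, 3 and 1 counts. Their groups overlapped with all samples, and for both the highest count was that of Ctrl shRNA replicate 2. Csf3, the granulocyte factor, had 8, 0 and 3 counts in the Ctrl shRNA samples and 9, 2 and 7 in the knockdown samples. Csf2, the factor that alveolar macrophages need to mature, had 0, 13 and 0 counts and 8, 6 and 1 counts. Ctrl shRNA replicate 2 held all of the Csf2 counts of its group and none of those of Csf3.

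Summed over each group, the counting intervals of the groups overlapped for Csf2, Csf3 and Il1a and not for Il33. Csf2 summed to 13 counts (exact Poisson 95% interval 6.92 to 22.2) in the Ctrl shRNA group and 15 (8.40 to 24.7) in the knockdown group. Without Ctrl shRNA replicate 2, the 2 control samples held 0 counts of Csf2 (0 to 3.69), while each of the 3 knockdown samples held at least 1. Csf3 summed to 11 (5.49 to 19.7) and 18 (10.7 to 28.4), and Il1a to 23 (14.6 to 34.5) and 20 (12.2 to 30.9). The control sum of Il1a was 11 (5.49 to 19.7) without Ctrl shRNA replicate 2, and the control mean moved from 0.325 CPM to 0.184 CPM, from above to below the knockdown mean of 0.223 CPM. In CPM the remaining 2 control samples of Il1a, at 0.194 and 0.174, then lay below the knockdown samples, at 0.202 to 0.235. Il33 summed to 28 (18.6 to 40.5) in the Ctrl shRNA group and 10 (4.80 to 18.4) in the knockdown group, intervals that did not overlap. Without Ctrl shRNA replicate 2 the Il33 sum of the control samples was 7 (2.81 to 14.4), so that library held most of the Il33 counts. These intervals cover counting error only and not the spread between samples. Csf2 and Il1a each overlap a noncoding gene on the opposite strand, Gm12223 at 0 counts in all samples and Gm14023 at 0 to 17 counts. Per sample Gm14023 had 15, 17 and 0 counts in the Ctrl shRNA group and 5, 3 and 6 in the knockdown group.

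The 3′UTRs of the 9 genes were read because AU-rich elements are known to shorten the life of cytokine mRNAs. In the longest annotated 3′UTR of each gene (GENCODE annotation of GRCm38), all 9 genes held the pentamer ATTTA, as did 65.19% of 20993 genes, and 7 held the heptamer TATTTAT, as did 27.59%. Longer regions hold more matches by their length alone, so pentamers were also counted per kilobase, for which the median over all genes was 1.24. The stretches of 30 bases with most pentamers are shown for the most AU-rich gene, Csf2, for 2 further low genes, and for Lif and Csf1, with each pentamer in capitals and T for U. They lie at positions 714 to 743 (Csf2), 788 to 817 (Il11), 2078 to 2107 (Il6), 3698 to 3727 (Lif) and 4086 to 4115 (Csf1) of the transcript.
Csf2: ttttaaatATTTATTTATTTATTTATTTAt
Il11: tttaaaaccagatcttATTTATTTATTTAt
Il6: actttaagttaATTTAtgattgatATTTAt
Lif: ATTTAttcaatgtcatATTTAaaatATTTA
Csf1: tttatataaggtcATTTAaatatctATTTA

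Csf2 held 9 pentamers in 317 bases, a density of 28.4 per kilobase that was above 99.92% of genes. Csf3 followed at 8.97, Il11 at 8.38 and Il6 at 6.00 per kilobase, above 98.44%, 98.09% and 95.25% of genes. Il18 was at 2.99, Il1a at 2.73, Lif at 2.20, Csf1 at 1.90 and Il33 at 1.79. The 4 genes of highest density were all at low level in these cells, and Csf1 and Lif, the genes of highest mean FPKM, were above 62.47% and 67.67% of genes. Il33 and Il1a were as low as Csf2 with few pentamers, so the order of density was not the order of level. Csf1 has 4 transcripts with an annotated 3′UTR. Those with the region of 2111 bases held 4 pentamers, and the short forms of 259 and 145 bases held 0. Counts per gene do not tell these forms apart.

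**Figure D4:**
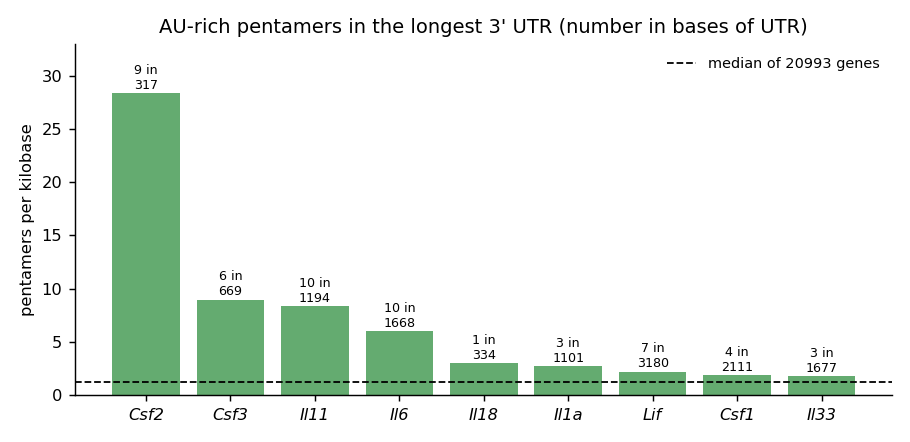
Pentamers ATTTA per kilobase of the longest annotated 3′UTR (y axis) of the 9 cytokine genes, with the number of pentamers and the length in bases above each bar. The dashed line marks the median of 20993 genes, 1.24, and Csf2 stands at 28.4 while Csf1, Lif and Il33 are close to the line.

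The pathway around these cytokines was described with 5 lists of 105 genes. No gene of the lists passed the test with all 6 samples (edgeR), where 0.0653% of all genes did. DESeq2 on the same samples called Kitl lower and Rhbdf2, Zc3h12a and Cish higher, and limma on FPKM called 0. Over all 13028 genes with an adjusted p in DESeq2, 2.71% were called, 1.64% higher and 1.07% lower. At an unadjusted p under 0.05, 7.47% of all genes tested were higher and 6.65% lower with all samples, and 9.54% and 10.3% without Ctrl shRNA replicate 2, and the counts of list genes at that level are read against these shares. The first list held 26 receptors and signal transducers, of which 19 entered the fit. At an unadjusted p under 0.05, 2 were higher and 0 lower (1 and 0 by DESeq2, which had 4.37% of all genes higher and 6.09% lower at that level), and the median log2 fold change was 0.08 against -0.01 over all genes. The counts were 2 and 3 and the median was -0.02 without Ctrl shRNA replicate 2. Il6st, encoding gp130, was the receptor of highest mean FPKM, with 198, 148 and 175 CPM in the Ctrl shRNA samples and 233, 202 and 237 CPM in the knockdown samples. Its groups did not overlap, and its log2 fold change was 0.37 (SE 0.13, edgeR adjusted p = 0.342). Jak1, Stat3 and Stat5b, the kinase and the transcription factors through which these receptors signal, had log2 fold changes of 0.05, 0.09 and -0.17 (edgeR adjusted p of 0.755, 0.690 and 0.357). Without Ctrl shRNA replicate 2 these were -0.01, -0.02 and -0.23, so the sign of Jak1 and Stat3 turned with that library.

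The receptors of Csf1, Csf3 and Il33, and the signaling chain of the Csf2 receptor, were near or at 0 in these cells. Csf1r had 0, 0 and 3 counts in the Ctrl shRNA samples and 0, 2 and 1 in the knockdown samples. Csf3r was at 0 in all 6 samples, and Csf2rb, the signaling chain of the Csf2 receptor, had 1 count in 1 sample. Csf2ra, the chain that binds Csf2, had 185 to 243 counts per sample, at 6.78, 10.9 and 7.53 CPM in the Ctrl shRNA samples and 8.17, 6.26 and 6.24 CPM in the knockdown samples, and its groups overlapped. Il1rl1, the receptor of Il33, had 0, 0 and 3 counts and 3, 3 and 4 counts. Lifr, the receptor of Lif, had 4.26, 2.73 and 2.30 CPM in the Ctrl shRNA samples and 4.30, 3.92 and 4.82 CPM in the knockdown samples. Its groups overlapped. Il11ra1, the receptor of Il11, had 19.1, 18.6 and 22.4 CPM and 17.9, 17.1 and 15.5 CPM. Both Lifr and Il11ra1 missed the threshold, at an edgeR adjusted p of 0.401 and 0.361.

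The list of related ligands held 34 genes, and 8 had enough counts to enter the fit. Of these 0 were higher and 1 was lower at an unadjusted p under 0.05, with a median log2 fold change of -0.03, and the counts were the same without Ctrl shRNA replicate 2. The most abundant were Clcf1, an IL-6 family ligand, Il4, Kitl, the stem cell factor, and Cntf. Clcf1 was at 43.0, 39.5 and 41.0 CPM in the Ctrl shRNA samples and 41.0, 49.5 and 41.6 CPM in the knockdown samples, and its groups overlapped. Kitl, whose receptor is related to Csf1r, was at 9.66, 11.2 and 9.34 CPM and at 5.91, 5.83 and 7.28 CPM. It was lower in all knockdown samples, with a log2 fold change of -0.66 (SE 0.15) that missed the threshold in edgeR (adjusted p = 0.245) and passed it in DESeq2 (adjusted p = 0.0213). Il4 and Cntf had log2 fold changes of -0.40 and 0.22 (edgeR adjusted p of 0.401 and 0.703), and -0.22 and 0.22 without Ctrl shRNA replicate 2. Il34, the other ligand of Csf1r, had 0 to 3 counts per sample, Tnf 0 to 2 and Il1b 0 to 7.

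The list of processing, shedding and soluble control held 18 genes, of which 16 entered the fit. At an unadjusted p under 0.05, 2 were higher and 1 was lower, and the median log2 fold change was -0.02. When Ctrl shRNA replicate 2 was left out, 17 entered the fit, 3 were higher and 3 lower, and the median was 0.02. Capns1 and Capn1, subunits of the calpain that cleaves the Il1a precursor, had log2 fold changes of -0.09 and 0.16 (edgeR adjusted p of 0.690 and 0.367). Adam10, a sheddase of membrane-bound ligands and receptors, had a log2 fold change of -0.13 (edgeR adjusted p = 0.421). S100a13, which takes part in the export of Il1a, had 793, 3675 and 1203 counts in the Ctrl shRNA samples and 731, 420 and 732 in the knockdown samples. Its log2 fold change of -2.00 (edgeR adjusted p = 0.350) became -0.69 without Ctrl shRNA replicate 2, the sample with by far the highest count. The groups of S100a13 did not overlap in either case. Rhbdf2, an iRhom needed by the sheddase Adam17 that releases cytokines and their receptors, was called higher by DESeq2 (adjusted p = 0.0371) and not by edgeR (log2 fold change 0.43, adjusted p = 0.234).

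The list of cytokine mRNA decay held 15 genes, which all entered the fit. Of these 3 were higher and 0 lower at an unadjusted p under 0.05, the median log2 fold change was 0.10 and 12 were above 0 (80.0%, against 48.7% of all genes). The counts were again 3 and 0, and the median 0.09, without Ctrl shRNA replicate 2. Zc3h12a, the endonuclease Regnase-1 that degrades the mRNA of Il6 and other cytokines, differed most. It had 176, 116 and 194 counts in the Ctrl shRNA samples and 457, 564 and 415 in the knockdown samples, or 5.69, 5.87 and 6.76 CPM and 15.4, 18.6 and 14.0 CPM. The groups were far apart on both scales. Its log2 fold change was 1.39 (SE 0.15, edgeR adjusted p = 0.0935) with all samples and 1.35 without Ctrl shRNA replicate 2, where it passed the threshold (edgeR adjusted p = 0.00795). Zfp36l2, a protein that binds AU-rich elements, and Khsrp, Cnot1 and Hnrnpd, the most abundant others, had log2 fold changes of 0.13, 0.19, 0.06 and 0.22 (edgeR adjusted p of 0.499, 0.372, 0.792 and 0.347), and that of Cnot1 was 0.0029 without Ctrl shRNA replicate 2.

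The list of feedback and targets of IL-6 family signaling held 12 genes, of which 10 entered the fit. At an unadjusted p under 0.05, 1 was higher and 1 was lower, and the median log2 fold change was 0.08. These were 2, 1 and 0.07 without Ctrl shRNA replicate 2. Cish, a feedback inhibitor induced by Stat5, had 44.6, 35.7 and 33.9 CPM in the Ctrl shRNA samples and 61.8, 66.8 and 60.5 CPM in the knockdown samples. The groups did not overlap, and the log2 fold change was 0.73 (SE 0.12, edgeR adjusted p = 0.178) with all samples and 0.67 (edgeR adjusted p = 0.0325) without Ctrl shRNA replicate 2. Socs3, the feedback inhibitor of gp130 and a target of Stat3, had 46.5, 36.0 and 42.6 CPM and 46.7, 44.2 and 42.2 CPM. The groups of Socs3 overlapped, with a log2 fold change of 0.09 (edgeR adjusted p = 0.698) that turned to -0.01 without Ctrl shRNA replicate 2. Junb, Pim1 and Ptpn2 had log2 fold changes of -0.07, -0.32 and -0.36 (edgeR adjusted p of 0.766, 0.312 and 0.653). Ptpn2 was at 73.7 CPM in Ctrl shRNA replicate 2 against 26.7 to 36.4 CPM in the other samples, and without that library its log2 fold change turned to 0.25, with Junb at -0.16 and Pim1 at -0.26.

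**Figure D5:**
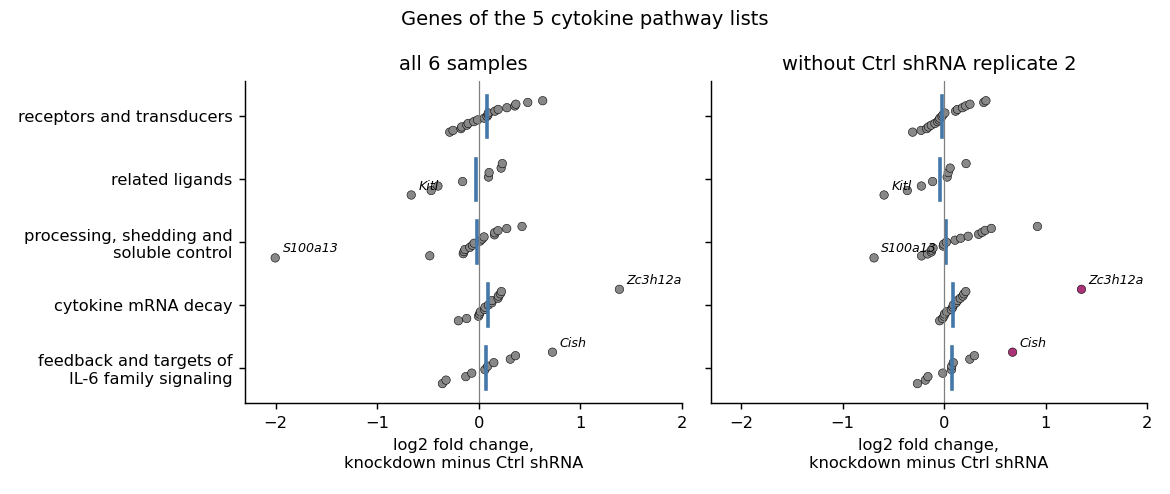
Log2 fold change, knockdown minus Ctrl shRNA (x axis), of each gene that entered the fit in the 5 lists, sorted within its list, for all 6 samples (left) and without Ctrl shRNA replicate 2 (right). Vertical blue lines are the medians of the lists, and purple points passed an adjusted p under 0.05, which held for Zc3h12a and Cish in the right panel and for no gene in the left.

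Genes with a pattern most like that of Csf1 were found by Pearson's r of log2 CPM, a description with no test. Over the 6 samples, which share their libraries and fall into 2 groups, Thbs1 (r = 0.999), Plk2 (0.998), Tnfaip3 (0.998), Cx3cl1 (0.996) and Aatf (0.996) came first. Thbs1, a matricellular glycoprotein, had 65.2, 58.6 and 58.8 CPM in the Ctrl shRNA samples and 131, 133 and 135 CPM in the knockdown samples. Tnfaip3, the ubiquitin-editing inhibitor A20, had 20.7, 17.7 and 17.4 CPM and 66.6, 70.6 and 66.6 CPM. Cx3cl1, a membrane-bound chemokine, had 17.3, 14.6 and 15.5 CPM and 28.5, 28.5 and 27.5 CPM. Likeness to Csf1 does not measure size, since the log2 fold changes of the 5 genes ran from 0.35 for Aatf to 1.87 for Tnfaip3. Of the 15307 genes, 65 had an r of 0.98 or more, and Lif came in place 538 (r = 0.918). Without Ctrl shRNA replicate 2, Thbs1, 1700019C18Rik, Nomo1, Akap1 and Epor came first, 181 genes had 0.98 or more, and Lif came in place 123 (r = 0.985). Of these, 1700019C18Rik was at only 0.202 to 0.708 CPM over the 6 samples, near the offset of 0.5 CPM added before the logarithm. Thbs1 was the 1 gene that both sets of 5 shared.

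Markers of other cell types were summed in each sample beside these results. The leukocyte list, as reported here, held 11 genes, 6 of them at 0 in all samples, and summed to 5.59 to 10.1 CPM in the Ctrl shRNA samples and 7.08 to 7.51 CPM in the knockdown samples, mostly Cd14 and Cd68. The fibroblast list of 8 genes, with Col3a1 at 0, summed to 346 to 1235 CPM and 317 to 345 CPM, the high value being Ctrl shRNA replicate 2. Most of this sum was Dcn, at 8830 to 23920 counts per sample, followed by Col1a1 at 401 to 704. The endothelial list of 6 genes, with Emcn at 0, summed to 36.8 to 45.8 CPM and 31.9 to 33.3 CPM, almost all from Tek. The 12 epithelial genes summed to 1582 to 1709 CPM and 1645 to 1767 CPM. The fibroblast and endothelial sums were lower in the knockdown group, where Csf1 and Lif were higher, and their part in the result was not tested.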

How the data were processed

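RNA-seq of MLE12 cells was analysed in 6 samples, grouped by their labels. The authors deposited raw counts of reads per gene, without normalization, and FPKM values, which are the counts over gene length and over a library size chosen by the authors (0.716 to 1.08 of the total count). The submitters' processing notes name HISAT2 2.0.5, StringTie 1.3.3b, featureCounts 1.5.0-p3 and mm10. The use of strand in counting is not given in the sources used here. All 6 columns of each table were used (0 unused). Gene positions were identical to GENCODE M21 for 98.33% of the genes found there.

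Genes were kept by filterByExpr and libraries scaled by TMM. Differences were tested in R 4.3.3 by the edgeR 4.0.16 quasi-likelihood method, with Benjamini-Hochberg adjustment over the 15307 genes tested and a threshold of 0.05. DESeq2 1.42.0 and limma 3.58.1 served as alternatives, the latter on log2(FPKM + 1) and log2(FPKM + 0.1). The fit was tested on simulated data. An exact permutation test of 3 against 3 could not go below p = 0.1. Duplicate libraries were sought and not found.

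The 9 genes, the lists and the marker genes were chosen with earlier results of these data known. One gene of the leukocyte markers is not reported here. The text names the 9 genes, list genes called with all samples or without Ctrl shRNA replicate 2, the 4 genes of highest mean FPKM per list, and the 5 genes most like Csf1. The other receptors and ligands, and Rhbdf2, were named for their role or values after these were seen. Promoters came from RefSeq and 3′UTRs from GENCODE M21. Tables and figures were made with Python 3.11.15, pandas 2.3.3, scipy 1.17.1 and matplotlib 3.10.9.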

Additional observations from a re-analysis of the deposited data

How the results depend on the processing

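The count of genes higher in the knockdown group, 9, became 214 with DESeq2, 1 with library size only and 0 with a replicate block, and ran from 0 to 175 when single samples were left out. The count of lower genes, 1, became 139 with DESeq2, 0 with library size only, 3 with limma on either FPKM scale, 3 with no count filter and 0 with the replicate block, and ran from 0 to 106 when single samples were left out. Where a count was 0, 603 to 725 higher and 333 to 2171 lower genes had an unadjusted p under 0.05. For Csf1 the log2 fold change of 1.17 was 1.33 with library size only and 1.17 with the replicate block, neither past the threshold, and ran from 1.11 to 1.24 without single samples, past it only without Ctrl shRNA replicate 2. With DESeq2, RLE scaling, the other count filters and limma, Csf1 was at 1.14 to 1.17 and past the threshold. Library size only moved the median log2 fold change of all genes from -0.01 to 0.16. Same-numbered samples did not deviate together (r of -0.29, -0.22 and -0.0066), so the numbers do not pair the samples. Il6 turned from -0.95 to 0.24 without Ctrl shRNA replicate 2, and ran from -1.48 to 0.24 over the fits without 1 sample. Lif passed the threshold with DESeq2 (0.68) and without that replicate (0.51). In the lists, DESeq2 called 1 related ligand lower, and 1 gene each higher among processing, mRNA decay and feedback genes. The mRNA decay list had 1 higher gene with no count filter, and the mRNA decay and feedback lists had 0 to 1 when single samples were left out. The cause of these differences was not tested. With 3 samples per group, Il6, Il11 and Il18 have wide intervals, and Il1a, Il33, Csf3 and Csf2 were below what the fit could use.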
